A study of Mus musculus with 67 samples.

Results

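Osteopontin (Spp1) and 6 further genes for matricellular and adhesive matrix proteins were followed across the single aortic cells of this study: thrombospondin-1 (Thbs1), thrombospondin-2 (Thbs2), tenascin-C (Tnc), periostin (Postn), SPARC (Sparc, also called osteonectin) and fibronectin (Fn1). These 7 genes, of 39179 in the table, were chosen by name, with earlier results of these data known. Every one of them passed the filter on low values described with the processing. The cells were vascular smooth muscle cells, the contractile cells of the vessel wall, isolated from the descending aorta of male C57Bl6 mice that were 3 to 4 months old and grown in DMEM containing 10% fetal bovine serum and 1% penicillin/streptomycin. Passage 2 cells (45 cells) had been detached with trypsin after the first 5 days and replated, whereas passage 1 cells (22 cells) came from that first culture. Each cell was 1 RNA-seq library made after microfluidic capture. No label ties a cell to an animal or a culture dish. Each passage is therefore 1 sample, and no p-value or standard error is given. SDs and ranges describe the spread between cells.

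Matricellular proteins are secreted into the matrix, where they bind integrins, growth factors and structural fibres and so modulate adhesion, migration and matrix assembly, in contrast to collagens and elastin, which bear load. Several of them are low in the resting artery and are known to be induced by injury, in atherosclerosis and when smooth muscle cells are placed in culture. Osteopontin is also a widely used marker of the synthetic state of cultured smooth muscle cells and an inhibitor of mineral growth in the vessel wall.

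Reads assigned to genes numbered 548419 to 1509589 in a passage 2 cell, against 817021 to 1561129 in a passage 1 cell, and 4163 to 8731 genes had a read per passage 2 cell against 4017 to 10733 per passage 1 cell. At least 3 of 10 smooth muscle markers reached a value of 10 in 45 passage 2 cells and 19 passage 1 cells. At least 3 of 10 endothelial markers did so in 2 passage 2 cells and 5 passage 1 cells. Of 10 macrophage markers, 7 had no read at passage 2 and 6 had none at passage 1, and no cell had 3 of them at a value of 10. The highest summed value of these markers was 295 in a passage 2 cell and 150 in a passage 1 cell, and the lowest was 0 in both. Passage and library set cannot be told apart, because the library labels of the passages carry different prefixes. In summed or averaged values, fewer expressing cells and less RNA per cell cannot be told apart either, which is why the cell counts are given.

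Osteopontin transcripts were lower at passage 2 than at passage 1, whereas the other 6 members were higher at passage 2 by the ratio of means. Of these, Thbs2 had a lower median and a lower share of reads at passage 2. Values are normalized counts, gene counts divided by a size factor per cell, and the log2 ratio compares log2(mean + 1) at passage 2 with that at passage 1. A ratio of at least 2-fold is called higher or lower. Tnc, Fn1 and Thbs1 were called higher, 3 of 7 members, where 14.4% of the 8682 genes kept were called higher. Spp1 was called lower, 1 of 7 members, where 19.4% of genes were. In either direction 4 of 7 members were called, against 33.9% of genes. Because the members were chosen with earlier results known, these shares stand side by side as a description only. The median log2 ratio was 0.96 over the 7 members and -0.11 over all genes kept. Postn, Sparc and Thbs2 lay between the 2-fold limits. The 7 genes together took 0.494%, 1.20% and 2.29% of a cell's reads at passage 2 (lowest, median and highest cell) and 0.255%, 0.902% and 1.38% at passage 1, so the ranges overlapped.

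**Figure D1:**
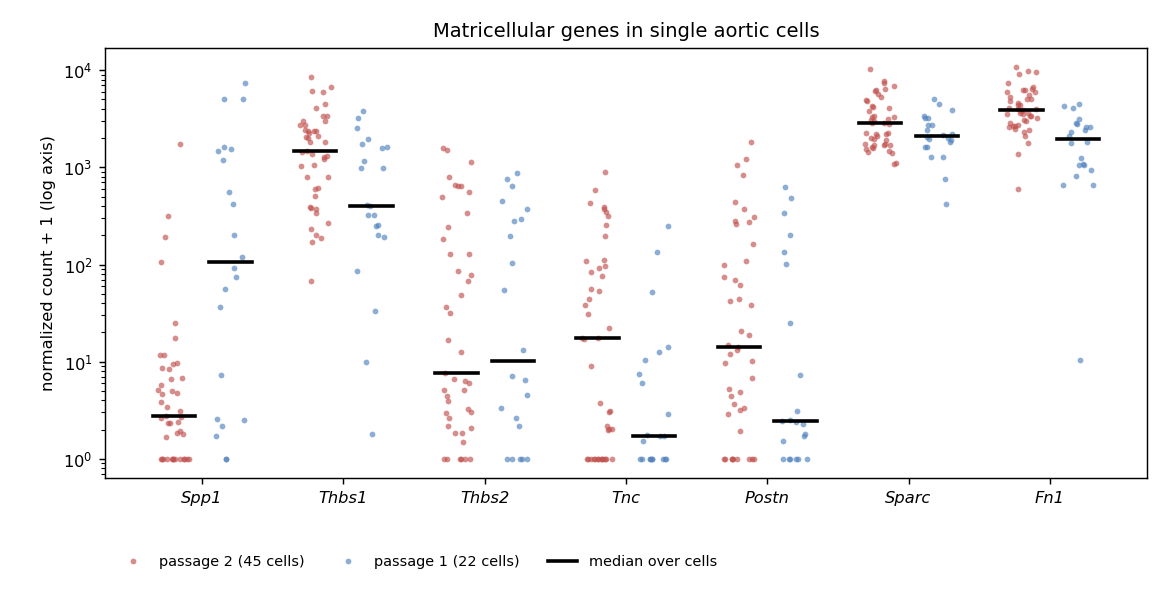
Normalized count plus 1 (log axis) of each matricellular gene in every cell, with the 45 passage 2 cells left of the 22 passage 1 cells for each gene and a bar at the median over cells. Most passage 2 cells sit at the bottom of the Spp1 column (median 1.78), below the passage 1 median of 106, and Sparc and Fn1 are high in nearly every cell.

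Spp1 (chr5:104435118-104441050, plus strand, GRCm38, 8 exon blocks) encodes osteopontin, a secreted phosphoprotein that binds alpha-v integrins and CD44. Its value was 0, 1.78 and 1721 at passage 2 (lowest, median and highest cell), against 0, 106 and 7336 at passage 1. The ranges overlapped, but 3 passage 1 cells exceeded every passage 2 cell, and passage 1 was the higher in 75.96% of all pairs of a passage 2 and a passage 1 cell. Means were 54.98 ± 260 at passage 2 and 1130 ± 2026 at passage 1 (SD, 45 and 22 cells), a log2 ratio of -4.34 or 20.2-fold lower at passage 2. A lower log2 ratio was found for 0.495% of the genes kept.

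The Spp1 transcripts were concentrated in few cells at both passages. A value of at least 10 was reached in 8 of 45 passage 2 cells (17.8%, exact Clopper-Pearson interval 8.002 to 32.1%), against 15 of 22 passage 1 cells (68.2%, interval 45.1 to 86.1%). Intervals cover counting error only. A value of at least 1000 was reached in 1 passage 2 cell and 7 passage 1 cells. At passage 2 the 8 cells had values of 1721 (cell 36), 312 (cell 13), 192 (cell 42), 105 (cell 20), 23.7 (cell 41), 16.5 (cell 23), 10.6 (cell 38) and 10.6 (cell 15), where cell numbers only name the libraries of a passage. A single cell therefore carried most of the passage 2 signal. At passage 1 the 7 cells above 1000 had values of 7336 (cell 4), 5108 (cell 5), 5014 (cell 18), 1630 (cell 7), 1561 (cell 15), 1466 (cell 3) and 1195 (cell 21). Of these, cells 7, 15 and 4 had summed macrophage markers of 150, 147 and 135, each with 1 marker at a value of 10. The others had sums of 59.9 (cell 5), 3.80 (cell 18), 0.650 (cell 3) and 0 (cell 21). Cells 5 and 7 had 2 of 10 smooth muscle markers at that value. The rho of Spp1 with the macrophage sum was 0.25 over passage 1 cells and -0.28 over passage 2 cells, and a link was not tested. The 3 highest cells held 89.9% of the summed Spp1 value at passage 2 and 70.2% at passage 1.

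The size of the Spp1 ratio turned on that single passage 2 cell, while its direction did not. Without passage 2 cell 36 the log2 ratio was -5.96, and leaving out each other cell in turn gave nothing higher than -3.90. Without the 25% of cells with the fewest genes in each passage, a set that holds cell 36, it was -6.32. Reads summed over cells were 2862 at passage 2 (0.00692% of all reads) and 34761 at passage 1 (0.132%). The passage 2 share was 19.02-fold lower (exact binomial interval 18.3 to 19.8-fold). That interval covers the counting of reads only, not the spread between cells, and 1848 of the passage 2 reads came from cell 36.

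Low Spp1 values were common at passage 2. Any Spp1 read was found in 32 passage 2 cells (71.1%) and 20 passage 1 cells (90.9%), and after thinning every cell to 500000 reads in 55.6% of passage 2 and 77.3% of passage 1 cells. Among lymphocyte and erythroid genes, which these cells should lack, the most frequent with any read was Cd3d at passage 2 (33.3% of cells) and Lck at passage 1 (31.8%). Those shares, taken before thinning, lie below the Spp1 shares at both passages, although most passage 2 cells with a Spp1 read had a value under 10. The highest value of any of these genes was 145, so they cannot gauge stray reads from cells rich in Spp1, which were not tested.

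Of the genes of its family, Spp1 was the one with more than a trace of reads. Osteopontin belongs to the SIBLING family of acidic, mineral-binding proteins, whose genes stand side by side on mouse chromosome 5, and Ibsp, Mepe and Dspp had no read in any cell, while Dmp1 had no read at passage 2 and reached 0.776 in 1 passage 1 cell. Bglap and Bglap2 (osteocalcin) had no read either. Mgp, the matrix Gla protein that inhibits calcification of the arterial wall, was the single other gene of this list to pass the filter. Its value was 83.1, 2508 and 13196 at passage 2 (lowest, median and highest cell) and 9.31, 342 and 2623 at passage 1. The log2 ratio of Mgp was 2.38, so the direction was opposite to that of Spp1. Of 8 osteoblast and chondrocyte markers, 4 had no read at passage 2 and 4 had none at passage 1. In all 3 passed the filter, 2 of them called higher at passage 2, where 14.4% of all genes kept were, and 1 lower without a call. Their median log2 ratio was 1.02, which rests on 3 genes. The most frequent, the chondrogenic factor gene Sox9, was at a value of 10 in 37.8% of passage 2 cells and 59.1% of passage 1 cells.

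Promoter sequences are shown for the member with the lowest ratio (Spp1), the member with the highest (Tnc) and Postn. Over passage 2 cells Postn had a rho of 0.36 with Tnc, below the 0.41 of Sparc with Tnc. RefSeq promoters (GRCm38.p6) were matched for 5 of the 7 members. Spp1, Tnc and Postn each have 2 RefSeq starts in the table, and the one nearest the GENCODE start of the gene is shown. Each sequence is the 250 bases before that start, 5′ to 3′ on the gene's strand. Capitals mark motifs found on either strand.
Spp1, chr5:104434861-104435110, plus strand: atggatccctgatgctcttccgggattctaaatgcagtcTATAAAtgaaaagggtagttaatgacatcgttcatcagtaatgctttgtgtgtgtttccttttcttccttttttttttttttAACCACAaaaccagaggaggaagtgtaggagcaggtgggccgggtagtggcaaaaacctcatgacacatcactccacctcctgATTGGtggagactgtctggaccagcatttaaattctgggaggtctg
Tnc, chr4:64047016-64047265, minus strand: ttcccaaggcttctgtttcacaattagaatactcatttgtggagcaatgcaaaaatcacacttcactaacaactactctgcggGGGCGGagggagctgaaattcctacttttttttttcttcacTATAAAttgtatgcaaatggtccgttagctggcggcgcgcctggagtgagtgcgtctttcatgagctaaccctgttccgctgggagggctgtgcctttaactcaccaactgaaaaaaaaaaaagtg
Postn, chr3:54360857-54361106, plus strand: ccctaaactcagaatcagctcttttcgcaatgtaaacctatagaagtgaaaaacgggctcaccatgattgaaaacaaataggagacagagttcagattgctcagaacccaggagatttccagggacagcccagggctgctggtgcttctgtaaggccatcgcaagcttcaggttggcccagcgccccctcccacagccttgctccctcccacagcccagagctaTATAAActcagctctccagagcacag
The motifs searched were TATAAA (the box of that name, in 12.4% of the 250-base windows before all 32851 starts in the table), CCAAT (33.8%), the GC box GGGCGG (32.7%), the AP-1 motif TGANTCA (6.75%), the cAMP response element TGACGTCA (1.55%), the Runx motif AACCACA (4.40%), the TEAD motif GGAATG (12.6%) and the CArG box (1.47%), the site of serum response factor. No 2 matches overlapped. All 3 windows held TATAAA, at -26 in Postn, at -126 in Tnc and at -211 in Spp1, counted from the start site. The windows before the other Spp1 and Postn starts and before the Sparc start held none of the motifs, and that before the other Tnc start overlaps the window shown. The Thbs2 window held TATAAA, read on the other strand, and CCAAT, on either strand, at 2 places. The Spp1 window also held AACCACA at -129 and a CCAAT box, read on the other strand as ATTGG, at -46. The Tnc window held GGGCGG at -167. A match describes the letters only, and the absence of one says only that those letters are not in the window.

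Thrombospondin-1 (Thbs1, chr2:118111876-118127133, plus strand) is a secreted trimeric glycoprotein that activates latent TGF-beta and signals through CD47. Thbs1 values were 66.1, 1477 and 8510 at passage 2 (lowest, median and highest cell), against 0.781, 404 and 3797 at passage 1. The ranges overlapped widely, with 6 passage 2 cells above every passage 1 cell and 3 passage 1 cells below every passage 2 cell. All 45 passage 2 cells and 20 of 22 passage 1 cells reached a value of 10. Means were 2036 ± 1899 at passage 2 and 1004 ± 1095 at passage 1 (SD, 45 and 22 cells), a log2 ratio of 1.02, and passage 2 was the higher in 69.7% of cell pairs.

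The Thbs1 call at 2-fold sat on the limit. It was lost when any 1 of 20 cells was left out (passage 2 cells 8, 11, 26, 29, 31, 33, 35 and 38, and passage 1 cells 2, 3, 4, 5, 7, 8, 10, 13, 18, 19, 21 and 22), with log2 ratios down to 0.91 without passage 2 cell 26, and also at 0.87 when cells were scaled to their total reads. Thbs1 is expressed by endothelial cells as well. Passage 2 cells 8 and 11, which had at least 3 endothelial markers at a value of 10, carried Thbs1 values of 6683 and 6094, the highest after that of cell 26. The 5 such passage 1 cells (cells 11, 12, 13, 14 and 16) had 1171, 985, 406, 3797 and 1749. Without these cells of both passages the log2 ratio was 1.16. Of the members' own relatives, Thbs3 had a value of 10 in 2 passage 2 cells and 3 passage 1 cells, and Thbs4 had no read.

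Thrombospondin-2 (Thbs2, chr17:14665500-14694235, minus strand) lacks the TGF-beta activating sequence of thrombospondin-1 and restrains angiogenesis and matrix protease levels. Thbs2 values were 0, 6.61 and 1598 at passage 2 and 0, 9.05 and 874 at passage 1. The passages overlapped almost fully: passage 2 was the higher in 48.8% of cell pairs. A value of 10 was reached in 22 of 45 passage 2 cells (48.9%, interval 33.7 to 64.2%), against 11 of 22 passage 1 cells (interval 28.2 to 71.8%). Means were 210 ± 394 at passage 2 and 184 ± 273 at passage 1, a log2 ratio of 0.19. Reads summed over cells went the other way, with 0.0220% of all reads at passage 2 and 0.0234% at passage 1. The log2 ratio turned to -0.04 without passage 2 cell 19 and to -0.03 without cell 17, and to -0.40 for medians over cells.

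Tenascin-C (Tnc, chr4:63959785-64047015, minus strand) is a large hexameric glycoprotein of remodelling and wounded tissue that loosens cell adhesion to fibronectin. Tnc had the highest log2 ratio of the 7 members, 2.19, and 3.33% of the genes kept had a higher one. Its values were 0, 16.4 and 900 at passage 2, against 0, 0.714 and 246 at passage 1. The ranges overlapped, and 8 passage 2 cells exceeded every passage 1 cell. A value of 10 was reached in 24 of 45 passage 2 cells (53.3%, interval 37.9 to 68.3%), against 5 of 22 passage 1 cells (22.7%, interval 7.82 to 45.4%). Passage 2 was the higher in 60.6% of cell pairs and 11.8% were tied.

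Tnc means were 103 ± 186 at passage 2 and 21.9 ± 58.1 at passage 1 (SD, 45 and 22 cells). At passage 1 the 3 highest cells held 89.6% of the summed value, and cell 17 alone had 246. Without passage 1 cell 17 the log2 ratio was 3.09. At passage 2 the 3 highest cells, 39, 23 and 3, had 900, 577 and 425 and held 40.99% of the sum, so the signal was spread over more cells. An opposite-strand transcript, 8030451A03Rik, shares 176 exon bases with Tnc and averaged 2.55 at passage 2 and 0.484 at passage 1. Whether counting used strand is not given in the sources used here, so their reads cannot be told apart there.

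Periostin (Postn, chr3:54361109-54391037, plus strand) is a fasciclin-domain protein that binds integrins and promotes collagen cross-linking, and it marks activated fibroblasts and injured arteries. Postn values were 0, 13.1 and 1816 at passage 2, against 0, 1.43 and 630 at passage 1. A value of 10 was reached in 25 of 45 passage 2 cells (55.6%, interval 39.997 to 70.4%), against 7 of 22 passage 1 cells (31.8%, interval 13.9 to 54.9%). The ranges overlapped, with 4 passage 2 cells above every passage 1 cell. Means were 170 ± 369 at passage 2 and 87.4 ± 175 at passage 1, a log2 ratio of 0.96, just under the 2-fold limit. It passed the limit without any 1 of 4 passage 1 cells (9, 10, 19 and 20), reaching 1.45 without cell 19. At passage 2 the 3 highest cells, 45, 5 and 3, had 1816, 1208 and 1054 and held 53.2% of the sum.

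SPARC (Sparc, chr11:55394500-55423183, minus strand) is a collagen-binding glycoprotein that assists collagen fibril assembly. Sparc values were 1077, 2859 and 10338 at passage 2 and 422, 2088 and 5027 at passage 1, so no cell lacked it. Means were 3389 ± 2106 at passage 2 and 2381 ± 1147 at passage 1, a log2 ratio of 0.51, under the 2-fold limit. Passage 2 was the higher in 62.1% of cell pairs, and 9 passage 2 cells exceeded every passage 1 cell. The log2 ratio stayed between 0.44 and 0.59 whichever cell was left out. By mean value Sparc ranked 18 among genes at passage 2 and 24 at passage 1.

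Fibronectin (Fn1, chr1:71585520-71653200, minus strand) is the dimeric glycoprotein on which cells assemble provisional matrix through alpha-5 beta-1 integrin. Fn1 values were 595, 3910 and 10686 at passage 2, against 9.37, 1966 and 4516 at passage 1. The ranges overlapped, but passage 2 was the higher in 83.9% of cell pairs, and 17 passage 2 cells exceeded every passage 1 cell. Means were 4451 ± 2260 at passage 2 and 2040 ± 1250 at passage 1 (SD, 45 and 22 cells), a log2 ratio of 1.13. It lay between 1.06 and 1.21 whichever cell was left out, but was under the 2-fold limit for medians over cells (0.99) and without cells with Mki67 or Top2a at a value of 10 (0.81). The lowest passage 1 cell, cell 21 (9.37), had reads for only 4017 genes, and its Thbs1 value of 0.781 was likewise the lowest of all cells. Apol7d, annotated antisense to Fn1, shares 292 exon bases with it and averaged 50.6 at passage 2 and 18.6 at passage 1.

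**Figure D2:**
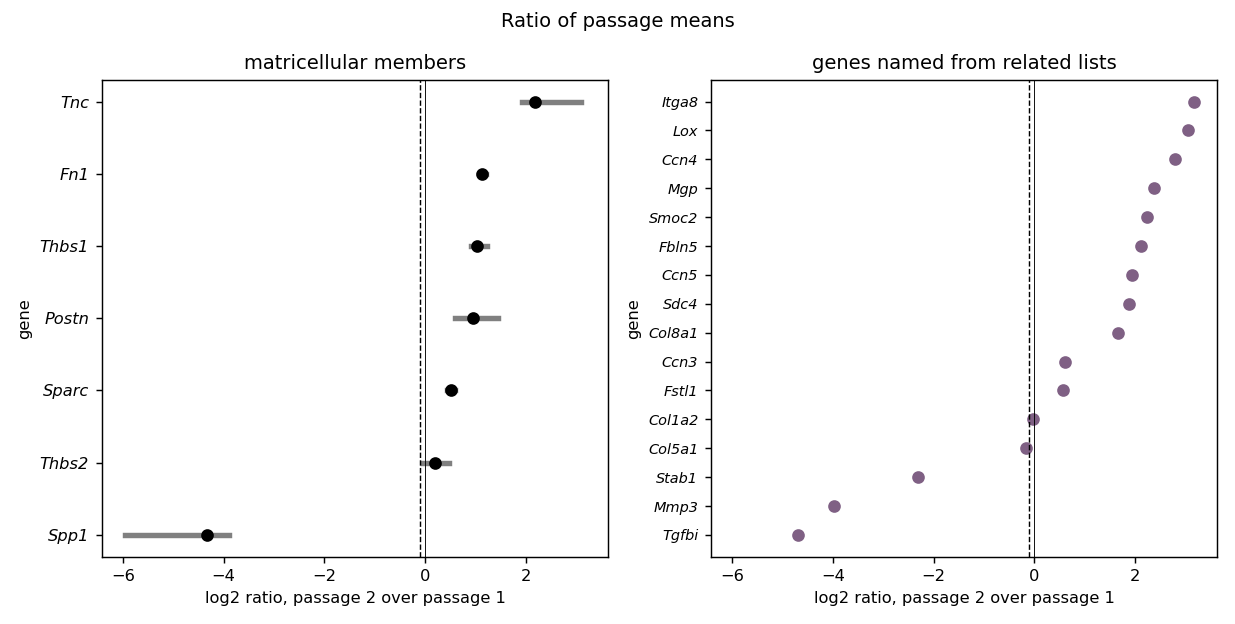
Log2 ratio of passage 2 over passage 1 means for the 7 matricellular genes (left, grey bars spanning the values with each cell left out in turn) and for the genes named from related lists (right), with the median of all genes kept as a dashed line. Tnc is highest (2.19) and Spp1 lowest (-4.34), and the grey bars of Spp1 and Tnc are the widest.

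The order of the members by level differed between passages. Per kilobase of annotated exon, mean normalized counts at passage 2 were 895 for Sparc, 381 for Fn1, 335 for Thbs1, 33.4 for Spp1, 30.02 for Thbs2, 19.6 for Postn and 13.3 for Tnc. At passage 1 the same means per kilobase were 686 for Spp1, 629 for Sparc, 175 for Fn1, 165 for Thbs1, 26.3 for Thbs2, 10.0 for Postn and 2.81 for Tnc. Spp1 thus stood first at passage 1 and behind Sparc, Fn1 and Thbs1 at passage 2 by mean per kilobase. Medians per kilobase, less moved by single cells, put Sparc first at both passages (755 at passage 2 and 551 at passage 1) and Spp1 at 1.08 at passage 2 and 64.1 at passage 1. By median, Fn1 (335 at passage 2 and 168 at passage 1) and Thbs1 (243 at passage 2 and 66.5 at passage 1) also stood above Spp1 at both passages. The patchy members changed places by median per kilobase: Tnc (2.11), Postn (1.505) and Thbs2 (0.944) ran in that order at passage 2, against Thbs2 (1.29), Postn (0.165) and Tnc (0.0919) at passage 1. Before scaling, the passage 1 medians were only 0.714 for Tnc and 1.43 for Postn. Those of Thbs2 were 6.61 at passage 2 and 9.05 at passage 1. Such medians rest on few reads in a cell, so this change of places carries little weight. Fn1 and Thbs1, and likewise Thbs2, Postn and Tnc, were neighbours in these orders whose cells overlapped within a passage.

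Fn1 and Sparc were even between cells and the others less so. The coefficient of variation between cells was 0.508 at passage 2 and 0.613 at passage 1 for Fn1, and 0.621 at passage 2 and 0.482 at passage 1 for Sparc. It was 0.933 at passage 2 and 1.09 at passage 1 for Thbs1. The other 4 were more uneven, with 4.73 at passage 2 and 1.79 at passage 1 for Spp1, and Tnc had 1.80 at passage 2 and 2.66 at passage 1. Thbs2 had 1.87 at passage 2 and 1.48 at passage 1, and Postn 2.16 at passage 2 and 2.01 at passage 1. The median cell had 5 of the 7 genes at a value of 10 at both passages. All 7 were at that value in 1 passage 2 cell (cell 13, which had reads for 4163 genes) and in 1 passage 1 cell (cell 19).

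**Figure D3:**
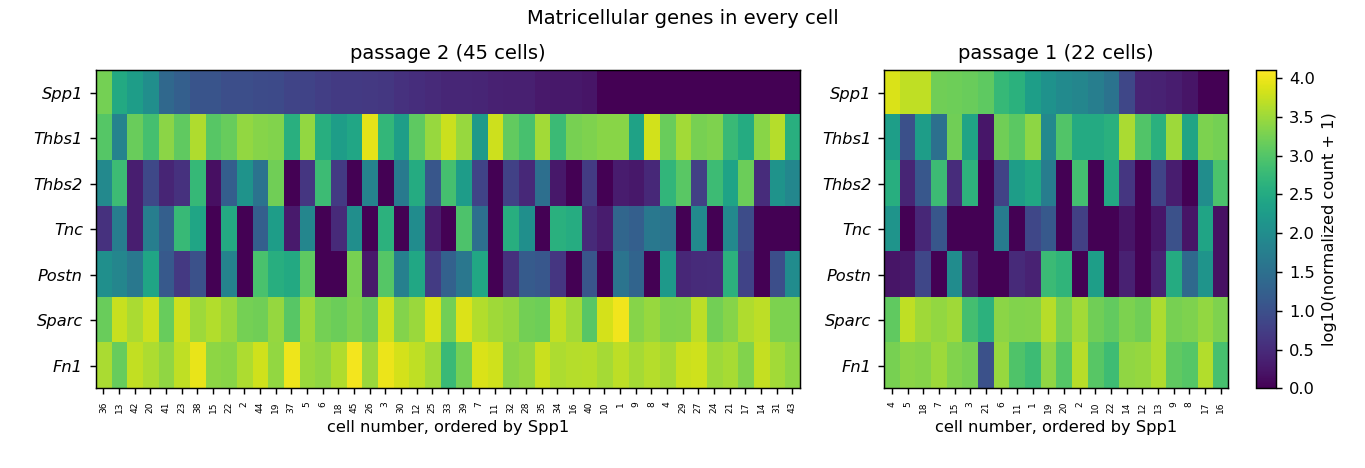
Log10 of the normalized count plus 1 of the 7 genes (rows) in every cell (columns), with passage 2 left of passage 1 and cells ordered by Spp1 within each. Spp1 is bright in 8 passage 2 cells at most and in 15 passage 1 cells, while the Sparc and Fn1 rows are bright almost throughout.

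Within a passage the 7 genes did not rank the cells alike. Spearman correlations (rho) over the cells were computed for the 21 pairs of members, as descriptions without p-values. The cells of a passage share a library set, and their depth differs. At passage 2 rho ran from -0.38 (Thbs2 with Fn1) to 0.41 (Tnc with Sparc), with a median of -0.01 over 45 cells. At passage 1 it ran from -0.57 (Spp1 with Thbs1) to 0.58 (Sparc with Fn1), with a median of 0.10 over 22 cells. No pair was at or past 0.5 in either direction at passage 2, where 0.0739% of all gene pairs were at 0.5 or above and 0.0204% at -0.5 or below. At passage 1 there was 1 pair on each side, against 1.75% and 0.719% of all gene pairs. In sparse counts such weak values are no finding, which covers 14 pairs within 0.2 of 0 at each passage.

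**Figure D4:**
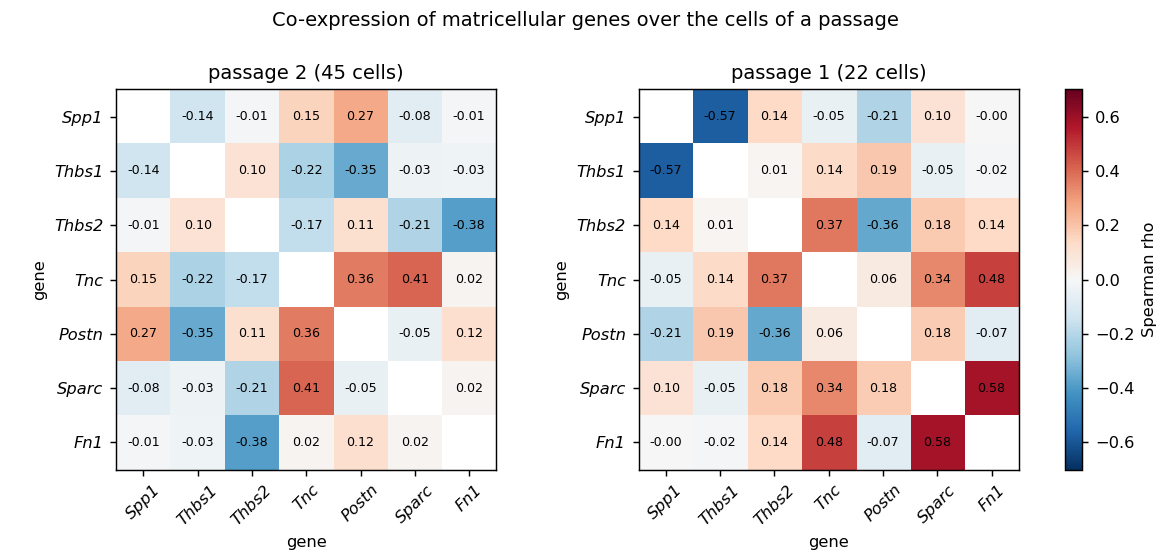
Spearman rho between the 7 genes over the 45 cells of passage 2 (left) and the 22 cells of passage 1 (right), with the value in each square. The darkest squares are Spp1 with Thbs1 (-0.57) and Sparc with Fn1 (0.58), both at passage 1.

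At passage 1 Spp1 and Thbs1 tended to be high in different cells. The 3 cells with the highest Spp1 (4, 5 and 18) had Thbs1 values of 199, 9.02 and 192, below the passage 1 median of 404. The 3 cells with the highest Thbs1 (14, 9 and 1) had Spp1 values of 6.36, 1.16 and 198. Some cells had both: cell 15 had 1561 for Spp1 and 1599 for Thbs1, and cell 6 had 561 for Spp1 and 1607 for Thbs1. In cell 21, with reads for 4017 genes, Spp1 was 1195 and Thbs1 0.781. In all, 13 of 22 passage 1 cells had both genes at a value of 10, 2 had Spp1 alone and 7 Thbs1 alone. Because Thbs1 reached 10 in 20 of the 22 cells, these counts say little about a link. Of the genes kept, 0.622% had a rho with Spp1 as low as or lower than that of Thbs1. At passage 2 all 45 cells had Thbs1 at a value of 10, so the 8 cells with Spp1 at 10 necessarily shared it. The passage 2 rho was -0.14.

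Markers of endothelial cells ran along with this pair. Over passage 1 cells the summed endothelial markers had a rho of -0.47 with Spp1 and of 0.33 with Thbs1, with sums from 1.27 to 6082. The 5 passage 1 cells with endothelial markers had Spp1 values of 414, 1.55, 1.51, 6.36 and 0. Without them the rho of Spp1 with Thbs1 was -0.57 over 17 cells. Leaving out each passage 1 cell in turn gave -0.63 to -0.52. Reads and genes per cell had rho of -0.10 and -0.14 with Spp1 and of -0.01 and 0.08 with Thbs1 at passage 1.

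**Figure D5:**
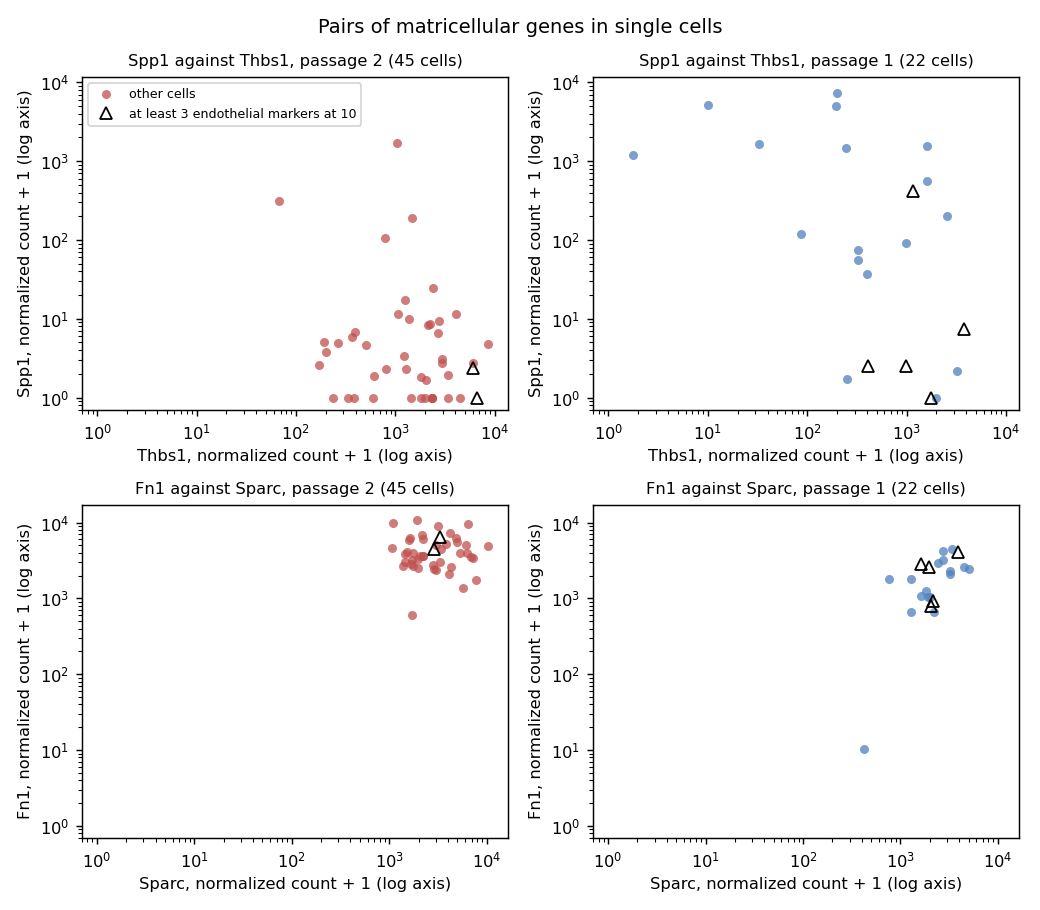
Spp1 against Thbs1 (top) and Fn1 against Sparc (bottom) in single cells, as normalized count plus 1 on log axes, passage 2 left and passage 1 right, with open triangles for cells with at least 3 endothelial markers at a value of 10. At passage 1 the 3 cells highest in Spp1 lie left of the Thbs1 median of 404 (rho -0.57 over all 22 cells), and the passage 1 cell far below the others in Fn1 is cell 21.

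Sparc with Fn1 gave 0.02 at passage 2 and 0.58 at passage 1. Without the 3 cells that had reads for fewer than 5000 genes, which include passage 1 cell 21, the passage 1 rho was 0.52. Tnc with Fn1 likewise gave 0.02 at passage 2 and 0.48 at passage 1. The difference between passages was not tested in either case. Tnc with Sparc gave 0.41 at passage 2 and 0.34 at passage 1. Of the genes kept, 0.599% had a rho with Tnc at least as high as that of Sparc at passage 2. At passage 1 6.07% did, and there Tnc reached a value of 10 in only 5 cells.

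Tnc and Postn ranked weakly together at passage 2. Tnc reached a value of 10 in 24 and Postn in 25 of the 45 cells, so many shared cells would be found without any link. Both were at a value of 10 in 17 of 45 passage 2 cells, Tnc alone in 7, Postn alone in 8 and neither in 13, with a rho of 0.36. At passage 1 both reached 10 in 2 of 22 cells and rho was 0.06. Thbs1 with Postn gave -0.35 at passage 2 and 0.19 at passage 1. Thbs2 with Fn1 gave -0.38 at passage 2 and 0.14 at passage 1, and Thbs2 with Postn gave 0.11 at passage 2 and -0.36 at passage 1. None of these differences between passages was tested. Thbs2 was also low where smooth muscle markers were high at passage 1 (rho of -0.53 with their sum), with 0.23 at passage 2.

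The genes that ranked the cells most like each member were listed as a description. Members at a value of 10 in at least 50% of the cells of a passage were used. For each, the 3 genes with the highest rho were taken, among 3104 genes at passage 2 and 4659 at passage 1. The highest of so many values, over 45 or 22 cells, can be high without any link. No null distribution was computed, and a link of any listed gene to a member was not tested. The functions given only say what a gene encodes. No other member was among the genes taken, which says little because so few of the genes compared were members. Spp1 at passage 1 was followed by Pcolce (0.77), an enhancer of procollagen processing, Emc8 (0.72) and Aspn (0.71), which encodes the small leucine-rich proteoglycan asporin. Pcolce itself had a log2 ratio of 1.17, opposite in sign to that of Spp1, and Aspn one of -0.13. Sparc was followed at passage 2 by Fstl1 (0.64), a follistatin-like protein of the SPARC family, Mfap5 (0.58), a microfibril protein, and Col1a1 (0.51), and at passage 1 by Mmp14 (0.79), a membrane-anchored collagenase, Lama4 (0.75) and Slc25a51 (0.72).

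Fn1 was followed at passage 2 by Apol7d (0.52), whose exons overlap Fn1 on the other strand, Prpf8 (0.52) and Vim (0.47), and at passage 1 by Twsg1 (0.77), Tmbim6 (0.73) and Dad1 (0.72). Thbs1 was followed at passage 2 by Sec13 (0.59), Esyt2 (0.56) and Adm (0.51) and at passage 1 its nearest genes included Cav2 (0.75) and Osbpl9 (0.70). For Tnc the nearest genes at passage 2 were Kif2a (0.60), Tmem45a (0.54) and Tomm5 (0.51), and for Postn they were Fubp3 (0.52), Ahnak2 (0.51) and Sulf2 (0.47). Thbs2 at passage 1 was nearest to Srek1, Rap1a and Epha3 (0.68 each).

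Genes of the thrombospondin, tenascin, SPARC and CCN families that passed the filter had the higher mean at passage 2. Over all genes kept, 14.4% were called higher and 19.4% lower, the shares to set beside each list below. Of 13 other thrombospondin, tenascin and SPARC family genes 3 passed, all with the higher mean at passage 2 and 2 of them called, with a median log2 ratio of 1.66. That median rests on the 3 genes and was 0.31 with no filter, 0.44 for medians over cells and 0.71 for means of log2 values. Of those under the filter Sparcl1, Tnr and Thbs3 had ratios of -1.17, -0.71 and -0.37, at means under 10 at both passages. Smoc2, a calcium-binding matrix protein, averaged 222 ± 451 at passage 2 and 46.0 ± 78.99 at passage 1 (log2 ratio 2.24), and Fstl1 averaged 7906 ± 3869 at passage 2 and 5306 ± 2538 at passage 1 (0.58). Of 6 genes of the CCN family, matricellular proteins that include known YAP and TGF-beta targets, 5 passed, all higher at passage 2 and 4 called, with a median of 1.63. Ccn5 averaged 1294 ± 802 at passage 2 and 339 ± 493 at passage 1 (1.93), Ccn4 had the highest ratio (2.80) and Ccn3 the lowest (0.61).

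Other adhesive matrix genes went both ways, as did all genes kept (3929 higher and 4753 lower). Of 14 such genes 12 passed, 6 in each direction. Of these, 2 were called higher and 3 lower, where 14.4% and 19.4% of all genes kept were. The median log2 ratio was -0.05, which became 0.14 with TMM scaling, 0.15 with no filter and -0.33 for means of log2 values. Fbln5, the elastin-binding fibulin-5, averaged 2864 ± 1444 at passage 2 and 657 ± 630 at passage 1 (2.12). Tgfbi, the closest relative of periostin, averaged 0.0913 at passage 2 and 27.3 ± 47.1 at passage 1 (-4.70, a value that depends on the pseudocount of 1). Tgfbi passed the filter only through its passage 1 mean, which ties its direction to the filter. Postn lay under the 2-fold limit, so no contrast between these genes is drawn. Of 10 collagen genes 8 had the higher mean at passage 2 and 6 were called, with a median of 1.08. Col8a1 had a log2 ratio of 1.66, Col5a1 one of -0.18 and Col1a2, with the highest mean, -0.03.

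Of 19 receptor genes for these proteins 16 passed, 9 of them higher and 7 lower at passage 2. Of these, 5 were called higher and 1 lower, where 14.4% and 19.4% of all genes kept were. The median log2 ratio was 0.22, which was 0 for medians over cells, 0.40 for means of log2 values and 0.42 with TMM. Itga8, whose integrin binds osteopontin, fibronectin and tenascin-C, averaged 240 ± 279 at passage 2 and 25.7 ± 70.1 at passage 1 (3.18). Sdc4, the syndecan that assists fibronectin adhesion, had 1.88, and Stab1, a scavenger receptor that takes up SPARC, had -2.30. Of 19 genes for processing enzymes and ligand partners 13 passed, 7 called higher and 2 called lower, with a median of 1.00 that was 0.51 with no filter and 0.22 for means of log2 values. Lox, which cross-links collagen and elastin, averaged 1336 ± 1219 at passage 2 and 162 ± 184 at passage 1 (3.04). Mmp3, the stromelysin that cleaves fibronectin and osteopontin, had -3.98, and its passage 2 value rested on 1 cell at a value of 10.

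Proliferation genes and markers of several cell types moved with the same contrast. Of 10 proliferation genes none was higher at passage 2 and 9 were called lower, with a median log2 ratio of -3.53, which was -4.14 without passage 2 cell 9. Mki67 had -3.02 and Top2a -4.61. Of 10 smooth muscle markers 9 passed and all 9 were higher, with a median of 2.22 and sums of 1371 to 28185 at passage 2 against 173 to 7811 at passage 1. Of 5 pericyte markers 4 were higher and 3 called, with a median sum of 2895 at passage 2 against 150 at passage 1. Of 6 endothelial markers that passed the filter 5 were called lower (median log2 ratio -1.47), with sums of 0 to 7293 at passage 2 and 1.27 to 6082 at passage 1. Of 9 fibroblast markers that passed 4 were called higher and 2 lower (median 0.43), with sums of 58.1 to 4044 at passage 2 and 86.1 to 5946 at passage 1. The part of the smooth muscle, pericyte and fibroblast markers in the members' ratios was not tested. Without every cell that had Mki67 or Top2a at a value of 10, which left 35 passage 2 and 6 passage 1 cells, the log2 ratio was -4.60 for Spp1, 1.35 for Tnc, 0.88 for Thbs1, 0.81 for Fn1 and 2.69 for Postn. Over passage 1 cells Spp1 had a rho of -0.17 with the summed proliferation genes.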

How the data were processed

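RNA of single cells was sequenced from 45 passage 2 and 22 passage 1 cells, 1 library per cell. Per the labels' protocols, cells were captured on a Fluidigm C1 system and libraries made with Nextera XT. BWA, SAMtools, HTSeq and DESeq with the GRCm38 genome are named in the submitters' processing notes, with no versions. The handling of strand and of multi-mapping reads is not given in the sources used here. The deposited table holds signal values, which the authors made by dividing gene counts by a size factor per cell. Dividing a column by its smallest positive value gave whole reads recovered for 100% of the 509576 positive values, to within 0.001.

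No count test was run on the recovered reads, because no label ties a cell to an animal or dish and each passage is then 1 sample. The filter required, in either passage, a mean of 10 or more and reads in 25% or more of the cells, and kept 8682 of 39179 genes. Log2 ratios compare means with a pseudocount of 1 and understate differences of genes with low values. A log2 ratio of at least 1 in size was called. Shares have exact Clopper-Pearson 95% intervals. Exon lengths and overlaps came from GENCODE M21 on the same build, and motifs from RefSeq promoters. No doublet caller was run on 67 cells.

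The members, the gene lists, their marker genes and the rule for named genes were chosen with earlier results of these data known. Named genes are the 7 members, the gene with the highest mean and those with the highest and lowest log2 ratio in each related list, Mki67 and Top2a, and the 3 genes with the highest Spearman rho with each member in a passage where at least 50% of cells had it at a value of 10, of which 1 gene is not reported here. Further genes of the thrombospondin and SIBLING families are named only to say that they had few reads or none, and this was decided after their values were seen. Alternatives covered pseudocounts (0.1 and 10), filters, scalings (total reads and edgeR 4.0.16 TMM factors), summaries over cells, thinning to 500000 reads and removal of sets of cells and of each cell in turn. Removal of the 3 cells with reads for fewer than 5000 genes was chosen after seeing the data. The ratio computation was tested on simulated data. Software was R 4.3.3 and Python 3.11.15 with scipy 1.17.1, pandas 2.3.3, numpy 2.4.6 and matplotlib 3.10.9.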

Additional observations from a re-analysis of the deposited data

How the results depend on the processing

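Spp1 stayed called lower under every alternative run, from -6.32 to -3.90, and Tnc called higher, from 1.35 to 3.34. Sparc stayed under the limit. Other calls at 2-fold or directions depended on settings, and the cause was not tested. Thbs1 was under the limit with total-read scaling (0.87), thinning (0.89), without Mki67 or Top2a cells (0.88) and without the 3 cells with reads for few genes (just under 1.00), and its range with each cell left out was 0.91 to 1.22. Thbs2 was -0.40 for medians over cells, -0.063 for means of log2 values and -0.043 to 0.47 with each cell left out. Postn passed the limit with TMM (1.08), medians (2.53), means of log2 values (1.37) and without Mki67 or Top2a cells (2.69), and ranged from 0.60 to 1.45 with each cell left out. Fn1 was 0.99 for medians and 0.81 without Mki67 or Top2a cells. The members' median was 1.05 with TMM, 1.37 for means of log2 values and 0.60 to 1.10 with each cell left out. The proliferation median was -5.78 for medians over cells and -1.84 without Mki67 or Top2a cells. The median of all genes kept was -0.11 as reported, -0.002 with TMM, -0.18 with total reads, -0.60 for medians over cells and -0.62 for means of log2 values, so ratios shift with it.

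Correlations are given as moved when they changed by over 1/sqrt(n - 1), with n the cells of the whole passage even where cells were left out. Member values are given as moved when they crossed the 2-fold limit or 0, and any value when it changed by over 1 SD between cells. A rho over only 6 cells can move past that limit without any link, so such values carry little weight. Over the 6 passage 1 cells without Mki67 or Top2a, rho was -0.94 for Spp1 with Thbs1, -0.52 with Tnc, -0.89 with Postn, 0.49 with Sparc and -0.31 with Fn1. For Thbs1 it was 0.39 with Tnc, 0.77 with Postn and -0.60 with Sparc. It was -0.26 for Thbs2 with Sparc, 0.94 for Tnc with Fn1 and -0.37 for Postn with Sparc. Pearson r of log2 values at passage 1 was 0.20 for Thbs1 with Sparc and 0.46 with Fn1. Thbs2 with Fn1 was 0.48 at passage 1 without endothelial-marker cells, and Spp1 with Sparc 0.085 at passage 2 after thinning. The other 321 rho comparisons moved by less. No paired analysis was possible because replicate numbers only name cells and no test was run. Shares of cells with a Spp1 read were lower after thinning at both passages.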
